A study of Sus scrofa with 12 samples.

Results

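Interferon-stimulated genes, together with the chemokine genes CXCL9 and CXCL10 and the guanylate-binding protein gene GBP2, were followed in the striatum of newborn piglets. The members are the rows of the authors' deposited table whose gene name is 1 of 36 listed names. The table held 31 of those names, each with 1 gene ID, out of 25880 gene IDs counted. IFIT3, OAS1, GBP1, XAF1 and IFNAR2 were not found by name and were dropped. For GBP1 the reference table of pig gene names gives a gene ID (ENSSSCG00000024973) that has no name in the authors' deposited table, so its values are given beside the members and are not counted with them. The ID that the reference table calls IFNAR2 is named IL10RB in the authors' deposited table, and it is not used here.

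The DHCA group consisted of 6 piglets anaesthetised with 4% isoflurane and put on cardiopulmonary bypass through the sternum. They were cooled to 18 °C, held in deep hypothermic cardiac arrest for 30 min, rewarmed on bypass to 37 °C and recovered for 6 h. The Sham group consisted of 6 piglets kept under 4% isoflurane. All 12 animals were newborn, the tissue is labelled as striatum region, and genotype, breed and sex are not given in the labels used here. Surgery, bypass, cooling and arrest come together in this design and cannot be told apart, and no recovery time is labelled for Sham. Libraries are named below by the group and the number in their titles.

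Type I interferons bind a receptor made of IFNAR1 and IFNAR2, and the kinases attached to it phosphorylate STAT proteins, STAT2 among them. With IRF9 these form a complex that switches on a large set of antiviral genes. Interferon gamma uses another receptor and JAK1 with JAK2, and its classical targets include CXCL9, CXCL10 and the guanylate-binding proteins. Several of these genes can also be induced through nuclear factor kappa B or by IRF1. In the brain, microglia, astrocytes, endothelium and neurons all can respond to interferon.

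Library totals ran from 5434652 to 9997400 counts in DHCA and from 1377809 (Sham 5) to 12933536 in Sham. Sham 1 (2515816 counts) and Sham 5 were the shallowest, and had 4.01% and 7.30% of counts on the mitochondrial chromosome, against 10.6% to 26.3% in the other 10 libraries. The summed markers of striatal spiny projection neurons were at 2529 to 4880.2 CPM (counts scaled to each library's TMM total, the trimmed mean of M-values) in DHCA. In Sham they were at 207 CPM in Sham 4 and at 3177 to 6208 CPM in the other 5 libraries, so Sham 4 went against its tissue label. For some genes and counts, results are therefore also given without Sham 1, Sham 4 and Sham 5. In bulk tissue, fewer cells of a type and less RNA per cell cannot be told apart.

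Of the 31 members, 29 passed the filter on low counts and 0 passed the edgeR quasi-likelihood test after Benjamini-Hochberg adjustment over all 14004 tested genes (threshold 0.05), where 0.186% of all tested genes passed. The smallest adjusted p was 0.0704, for CXCL10. At an unadjusted p under 0.05, CXCL10, GBP2, JAK2 and IFIT5 were higher in DHCA. That is 4 of 29 members (13.8%) against 3.43% of all tested genes, and 0 were lower, against 4.47%. Without CXCL10 and GBP2, 2 of 27 members were higher and 0 lower. The members were chosen with earlier results of these data known, so these shares are a description and no test of the list. Fold changes (log2, DHCA minus Sham) were positive for 26 and negative for 3 of the 29 members (89.7% positive), beside 49.5% positive over all tested genes. Many members were high in the same libraries, so these signs are not independent of each other. The members' median was 0.35, beside -0.003 over all tested genes. The median was lowest without DHCA 4 (0.10) and highest without Sham 1 (0.52). In no member did the 6 DHCA libraries lie wholly above the 6 Sham libraries, where 0.678% of all tested genes did, nor wholly below, where 0.314% did.

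CXCL10 had the largest fold change of the tested members, and its highest values were those of DHCA 1, DHCA 2, DHCA 3 and DHCA 4. It encodes a chemokine that draws in cells bearing the receptor CXCR3 (ENSSSCG00000032474, Sscrofa11.1 chromosome 8, 71690758 to 71696162). Its level was 56.3, 189.9, 165, 142, 9.96 and 2.47 CPM in DHCA 1 to DHCA 6, against 0.388, 8.24, 0.674, 1.28, 3.99 and 5.42 CPM in Sham 1 to Sham 6. DHCA 1 to DHCA 5 lay above every Sham library, and DHCA 6 lay among the Sham values. The means were 94.3 ± 81.8 CPM in DHCA and 3.33 ± 3.12 CPM in Sham (SD, n = 6 each), a log2 fold change of 4.70 (SE 0.95, adjusted p = 0.0704). Leaving out DHCA 6 gave an adjusted p of 0.0281, the lowest of the 12 such fits, and the highest was 0.204. Without Sham 1, Sham 4 and Sham 5 the fold change was 4.24 (adjusted p = 0.502). The DESeq2 Wald test gave CXCL10 an adjusted p of 0.000219. The adjusted p was 0.433 with limma-voom and 0.146 with limma-voom and sample quality weights. It was 0.387 with edgeR and the replicate number as a block. CXCL10 reached the filter's minimum of 1.38 CPM in 6 DHCA and 3 Sham libraries, so it entered the test through its DHCA values.

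CXCL9, a chemokine of the same receptor (ENSSSCG00000032777, chromosome 8, 71663501 to 71670271), lies 20.5 kb from CXCL10. It had 15, 321, 59, 74, 0 and 0 counts in DHCA 1 to DHCA 6, against 3, 1, 0, 1, 0 and 1 counts in Sham 1 to Sham 6. These are 1.47, 43.6, 9.06 and 9.95 CPM in DHCA 1 to DHCA 4, and at most 1.16 CPM in Sham. The libraries with CXCL9 counts above those of Sham are the same 4 that held the most CXCL10. By level DHCA 1 is not clearly above Sham, at 1.47 CPM against 1.16 CPM in Sham 1 and up to 2.00 CPM allowed in Sham 5. CXCL9 did not pass the filter and is not in the main edgeR test. In edgeR with no filter its log2 fold change was 6.06 (adjusted p = 0.150). A count of 0 allows up to 0.336 CPM in DHCA 5 and 0.618 CPM in DHCA 6, and up to 2.00 CPM in Sham 5, counting error only. CXCR3, the receptor, had 4 counts in all of DHCA and 3 in all of Sham.

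GBP2 encodes an interferon-induced GTPase that acts on membranes of intracellular pathogens (ENSSSCG00000006923, chromosome 4, 127387223 to 127408729). It was at 19.8, 43.9 and 61.5 CPM (lowest, median, highest) in DHCA and at 16.9, 22.2 and 26.0 CPM in Sham. Of the DHCA libraries 5 lay above all of Sham and DHCA 6 was within the Sham range. The log2 fold change was 0.97 (SE 0.25, adjusted p = 0.188), between 0.82 and 1.105 whichever library was left out. Without Sham 1, Sham 4 and Sham 5 it was 1.07 (edgeR adjusted p = 0.502). The DESeq2 Wald test (adjusted p = 0.0222) and limma-voom with sample quality weights (adjusted p = 0.0475, where 0.921% of all tested genes were called higher) called it. It was not called by limma-voom without weights (adjusted p = 0.268) or by edgeR with the replicate number as a block (adjusted p = 0.652).

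The gene ID named GBP1 by the reference table (chromosome 4, 127289856 to 127442565) was at 31.7, 194 and 401 CPM in DHCA and at 19.7, 38.2 and 95.2 CPM in Sham. DHCA 1 to DHCA 4 lay above all of Sham, and DHCA 5 and DHCA 6 within it. Its log2 fold change was 1.99 (SE 0.53, edgeR adjusted p = 0.206). The adjusted p was 0.0124 with DESeq2, 0.327 with limma-voom and 0.0635 with limma-voom and sample quality weights. Without Sham 1, Sham 4 and Sham 5 the fold change was 2.30 (edgeR adjusted p = 0.514). This gene model spans GBP2 on the other strand and has 16048 exon bases, and reads of near-identical guanylate-binding protein genes could be split among models, so its level is uncertain.

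**Figure D1:**
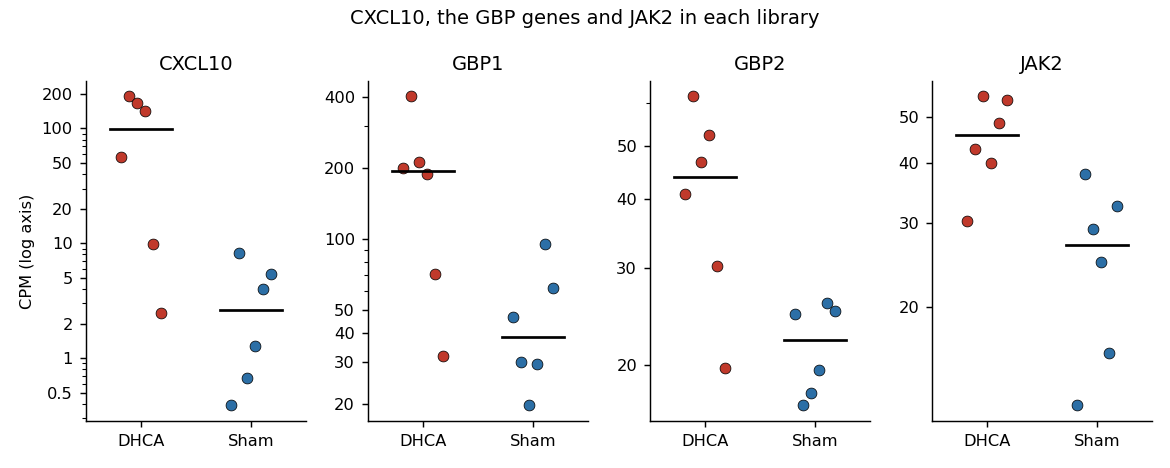
CPM on a log axis for CXCL10, GBP1, GBP2 and JAK2, with 1 point per library (DHCA left, Sham right, libraries 1 to 6 from left to right within a group) and a line at the median. In DHCA, CXCL10 ran from 2.47 to 189.9 CPM and overlapped Sham only through DHCA 6.

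Along the signal chain, the receptor gene overlapped widely between groups, and JAK2 lay above all of Sham in 5 DHCA libraries. IFNAR1, a chain of the type I interferon receptor, was at 38.2, 53.6 and 60.1 CPM (lowest, median, highest) in DHCA and at 22.5, 46.9 and 55.7 CPM in Sham. The groups overlapped over most of their range, with a log2 fold change of 0.21 (SE 0.21, adjusted p = 0.827), which turned to -0.061 with sample quality weights.

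JAK2, the kinase of the interferon gamma receptor and of many cytokine receptors (ENSSSCG00000005215, chromosome 1, 216848648 to 217002166), was at 30.3, 45.8 and 55.3 CPM in DHCA and at 12.4, 27.0 and 38.0 CPM in Sham. All DHCA libraries but DHCA 1 lay above all of Sham, with a log2 fold change of 0.80 (SE 0.25, adjusted p = 0.354). Its lowest Sham values were those of Sham 1 and Sham 5, and without Sham 1, Sham 4 and Sham 5 the fold change was 0.44 (adjusted p = 0.932).

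STAT2, the signal transducer of the type I response, was at 17.7, 22.9 and 35.9 CPM in DHCA and at 13.6, 18.7 and 23.3 CPM in Sham, a log2 fold change of 0.44 (SE 0.22, adjusted p = 0.678). DHCA 1, DHCA 2 and DHCA 4 lay above all of Sham, and the other 3 DHCA libraries within its range. STAT2 shares 2190 exon bases with PAN2 on the same strand, so reads there could belong to either gene.

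**Figure D2:**
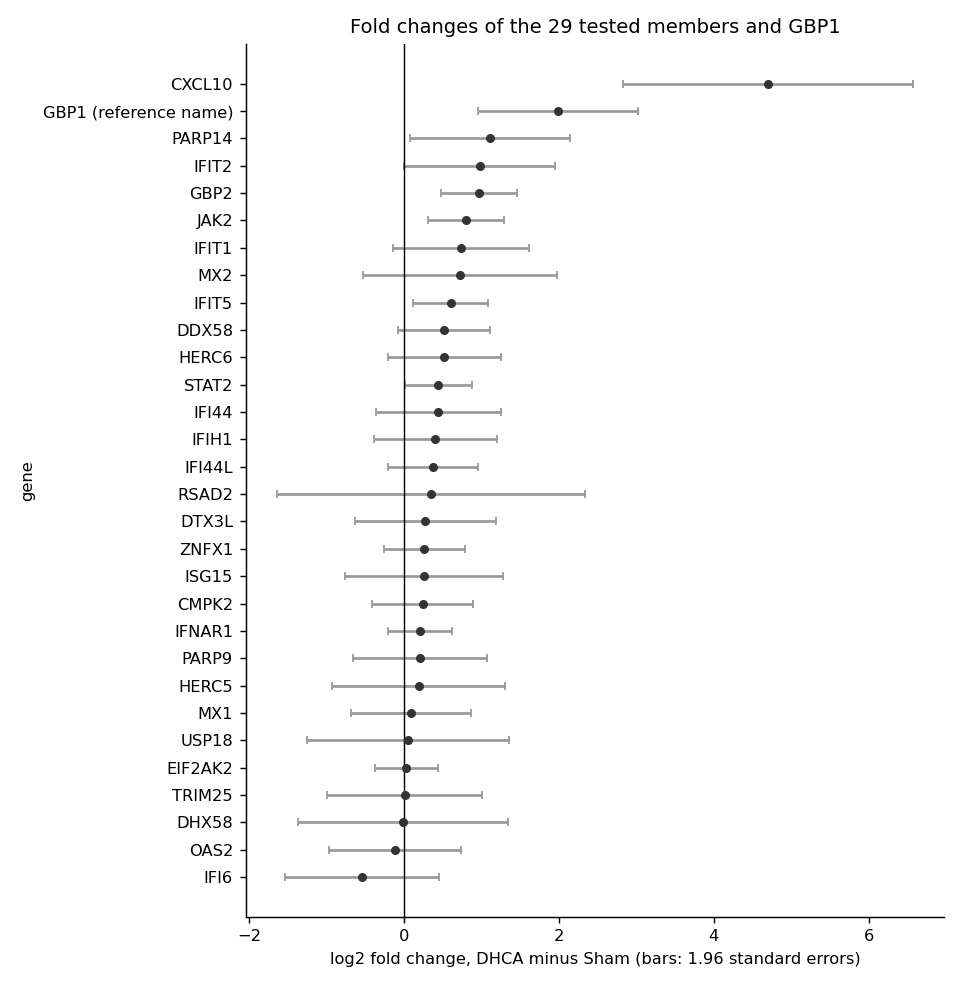
Log2 fold change, DHCA minus Sham, of the 29 tested members and of GBP1 from the edgeR fit, with bars of 1.96 standard errors on each side. CXCL10 (4.70) stands at the top and IFI6 (-0.54) at the bottom, and 22 of the 29 members' bars cross 0. The bars are narrower than the F test implies. Those of PARP14, STAT2 and IFIT2 clear 0 at unadjusted edgeR p of 0.054, 0.063 and 0.069, and 4 members were under 0.05.

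The highest DHCA values of the RNA sensor genes were those of DHCA 2 and DHCA 4. Both libraries lay above all of Sham for DDX58 and IFIH1, and below Sham 1 for DHX58. DDX58 encodes RIG-I, a cytosolic sensor of viral RNA (ENSSSCG00000030408). It was at 33.4, 46.9 and 108 CPM in DHCA and at 30.6, 43.0 and 54.8 CPM in Sham. DHCA 4 (108 CPM) and DHCA 2 (94.8 CPM) lay above all of Sham, and the other 4 DHCA libraries within its range. Its log2 fold change was 0.52 (SE 0.30, adjusted p = 0.756), and 0.27 without DHCA 4. IFIH1, which encodes the related sensor MDA5, ran from 6.96 to 25.5 CPM in DHCA and from 4.55 to 16.2 CPM in Sham. DHX58, which encodes their regulator LGP2, ran from 3.47 to 30.9 CPM in DHCA and from 3.83 to 38.4 CPM in Sham, with its highest value in Sham 1. Its fold change was -0.02 (SE 0.69), and -0.54 without DHCA 4 against 0.68 without Sham 1.

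The IFIT genes, whose proteins bind foreign RNA and block its translation, stand side by side on chromosome 14, with 7.29 kb between IFIT2 and IFIT1 and 3.55 kb between IFIT1 and IFIT5. IFIT5 was at 31.2, 44.3 and 56.4 CPM in DHCA and at 12.8, 31.9 and 36.5 CPM in Sham. DHCA 2, DHCA 3, DHCA 4 and DHCA 6 lay above all of Sham (log2 fold change 0.60, SE 0.25, adjusted p = 0.547). Without Sham 1, Sham 4 and Sham 5 the fold change of IFIT5 was 0.47 (edgeR adjusted p = 0.985). IFIT1 reached 128 CPM in DHCA 4, 76.2 CPM in DHCA 2 and between 21.7 and 39.0 CPM in the remaining DHCA animals, and lay between 17.9 and 48.6 CPM in Sham. Its fold change was 0.74 (SE 0.45), and 0.24 without DHCA 4. IFIT2 had the same libraries on top (DHCA 4 at 42.1 CPM and DHCA 2 at 38.0 CPM) against 5.40 to 20.9 CPM in Sham, and a fold change of 0.98 (SE 0.50, adjusted p = 0.693).

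Among the antiviral effectors, the myxovirus resistance genes MX1 and MX2 lie 15.6 kb apart on chromosome 13. MX1, whose GTPase traps viral nucleocapsids, had the highest level per length of the members, 58.5 CPM per kb in DHCA and 55.2 CPM per kb in Sham. It was at 51.3, 80.1 and 219 CPM in DHCA and at 66.1, 99.8 and 189 CPM in Sham, with DHCA 2 and DHCA 4 above all of Sham and DHCA 3 and DHCA 5 below it. The log2 fold change of MX1 was 0.09 (SE 0.40, adjusted p = 0.966), negative in 5 of the fits without 1 library and with limma-voom (-0.0058). MX2 ran from 35.4 to 229.8 CPM in DHCA and from 15.1 to 153 CPM in Sham. In Sham its values fell apart, with 153, 94.5 and 111 CPM in Sham 1, Sham 5 and Sham 6 and 15.1 to 17.9 CPM in the other 3 libraries.

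OAS2, an RNA-activated synthetase that switches on RNase L, was at 41.4, 59.9 and 138 CPM in DHCA and at 35.999, 88.9 and 147 CPM in Sham. DHCA 2, DHCA 4, Sham 1, Sham 5 and Sham 6 all lay between 134 and 147 CPM, and the other 7 libraries between 35.999 and 63.0 CPM. The log2 fold change was -0.12 (SE 0.43, adjusted p = 0.955), and its sign changed with the tool and with the library left out.

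RSAD2, which encodes viperin, had the widest spread of these effectors, from 1.24 to 59.3 CPM in DHCA and from 0.674 to 36.8 CPM in Sham. Its fold change of 0.35 (SE 1.01) became -0.83 without DHCA 4 and 1.04 without Sham 1. CMPK2, a nucleotide kinase gene 5.52 kb from RSAD2, ran from 13.6 to 35.6 CPM in DHCA and from 9.57 to 30.6 CPM in Sham. EIF2AK2, the RNA-activated kinase PKR, had 67.5 to 141 CPM in DHCA and 87.8 to 130.4 CPM in Sham (fold change 0.03, SE 0.21). ZNFX1, a helicase-like RNA sensor, was at 135, 186 and 330.2 CPM in DHCA and at 112, 181 and 269 CPM in Sham. DHCA 2 and DHCA 4 again lay above all of Sham, and the log2 fold change was 0.26 (SE 0.27, adjusted p = 0.825). ISG20, an RNA exonuclease gene, had 9 counts in all of DHCA and 4 in all of Sham and did not pass the filter.

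ISG15 encodes a ubiquitin-like protein that is attached to others after interferon. It was at 21.3, 43.6 and 103 CPM in DHCA and at 20.0, 33.2 and 126 CPM in Sham. The highest of the 12 values was that of Sham 1 (126 CPM), followed by DHCA 2 (103 CPM) and DHCA 4 (101 CPM). The log2 fold change was 0.26 (SE 0.52, adjusted p = 0.909), 0.0025 without DHCA 4, 0.81 without Sham 1, and 0.98 (adjusted p = 0.993) without Sham 1, Sham 4 and Sham 5. HERC5 and HERC6, whose proteins attach ISG15 in human (HERC5) and in mouse (HERC6), lie 4095 bases apart on chromosome 8. They ran from 5.60 to 37.4 and from 26.3 to 80.6 CPM in DHCA, against 5.80 to 46.1 and 17.3 to 55.9 CPM in Sham. USP18, which removes ISG15 and restrains the receptor, ran from 2.57 to 22.4 CPM in DHCA and from 3.24 to 32.6 CPM in Sham. TRIM25, the ubiquitin ligase of RIG-I, ran from 4.74 to 26.4 CPM in DHCA and from 4.69 to 36.4 CPM in Sham. In ISG15, HERC5, USP18 and TRIM25 the highest library was Sham 1, and their fold changes lay between 0.01 and 0.26.

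PARP14, an ADP-ribosyltransferase gene, had the largest fold change of the 29 tested members after CXCL10, 1.11 (SE 0.53, adjusted p = 0.643). It ran from 8.66 CPM in DHCA 6 to 94.9 CPM in DHCA 4, and from 7.95 to 41.1 CPM in Sham. DHCA 2, DHCA 3 and DHCA 4 lay above all of Sham, and DHCA 6 was near the lowest Sham value. Its partners PARP9 and DTX3L, which lie on opposite strands and share 218 exon bases, had fold changes of 0.21 (SE 0.44) and 0.27 (SE 0.46). Counting set no strand option, so reads from such overlapping opposite-strand exons cannot be told apart. Other members share exon bases too, among them HERC5 with PIGY (660) and EIF2AK2 with GPATCH11 (557), on opposite strands. On the same strand, DHX58 shares 303 with KAT2A and DDX58 shares 290 with TOPORS.

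IFI6 encodes a small protein of interferon-treated cells that limits cell death. It had the most negative fold change of the members, -0.54 (SE 0.51, adjusted p = 0.822). It was at 5.93, 24.8 and 65.9 CPM in DHCA and at 14.8, 42.6 and 79.9 CPM in Sham. Sham 1 (79.9 CPM) and Sham 5 (73.9 CPM) lay above all of DHCA. Without Sham 1, Sham 4 and Sham 5 the fold change of IFI6 was -0.23. IFI44 ran from 6.96 to 26.9 CPM in DHCA and from 4.97 to 18.5 CPM in Sham, and IFI44L from 15.2 to 38.3 CPM in DHCA and from 9.44 to 30.6 CPM in Sham. The IFI44L gene model spans IFI44 on the same strand, with no shared exon bases.

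Spread within a group was wide for these genes. The standard deviation of log2 CPM had a median over the 29 members of 0.87 in DHCA and 0.76 in Sham, beside 0.34 and 0.51 over all tested genes. The highest DHCA library exceeded the lowest by 1.57-fold for IFNAR1 up to 76.8-fold for CXCL10 (median 4.28). In Sham the same ratio ran from 1.49 for EIF2AK2 to 54.6 for RSAD2 (median 3.57). In 16 of 29 members the spread was larger in DHCA than in Sham, against 3188 of 14004 tested genes. Over all tested genes the shallow library Sham 1 was the highest in Sham for 32.0% and the lowest for 35.1%. The part of single libraries in this contrast was not tested.

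DHCA 4 and DHCA 2 held the highest values more often among the members than among all tested genes, and Sham 1 and DHCA 3 did not. DHCA 4 held the highest of the 12 values for 15 of 29 members, Sham 1 for 7, DHCA 2 for 5 and DHCA 3 for 2. Over all tested genes DHCA 4 was highest for 3.55%, Sham 1 for 27.2%, DHCA 2 for 4.25% and DHCA 3 for 14.2%. Each library's median deviation over the members (log2 CPM minus the gene's mean over 12 libraries) was 1.14 in DHCA 4, 1.04 in DHCA 2 and between -0.51 and 0.13 in the other DHCA libraries. In Sham it was 0.49 in Sham 1, 0.34 in Sham 5, 0.33 in Sham 6, -0.45 in Sham 2, -0.71 in Sham 3 and -0.92 in Sham 4. Over all tested genes this deviation stayed between -0.02 and 0.05 in the 12 libraries. Sham 1 and Sham 5 are the shallow libraries and Sham 4 the one with low striatal markers, and the part of depth and of these markers in the members' levels was not tested.

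**Figure D3:**
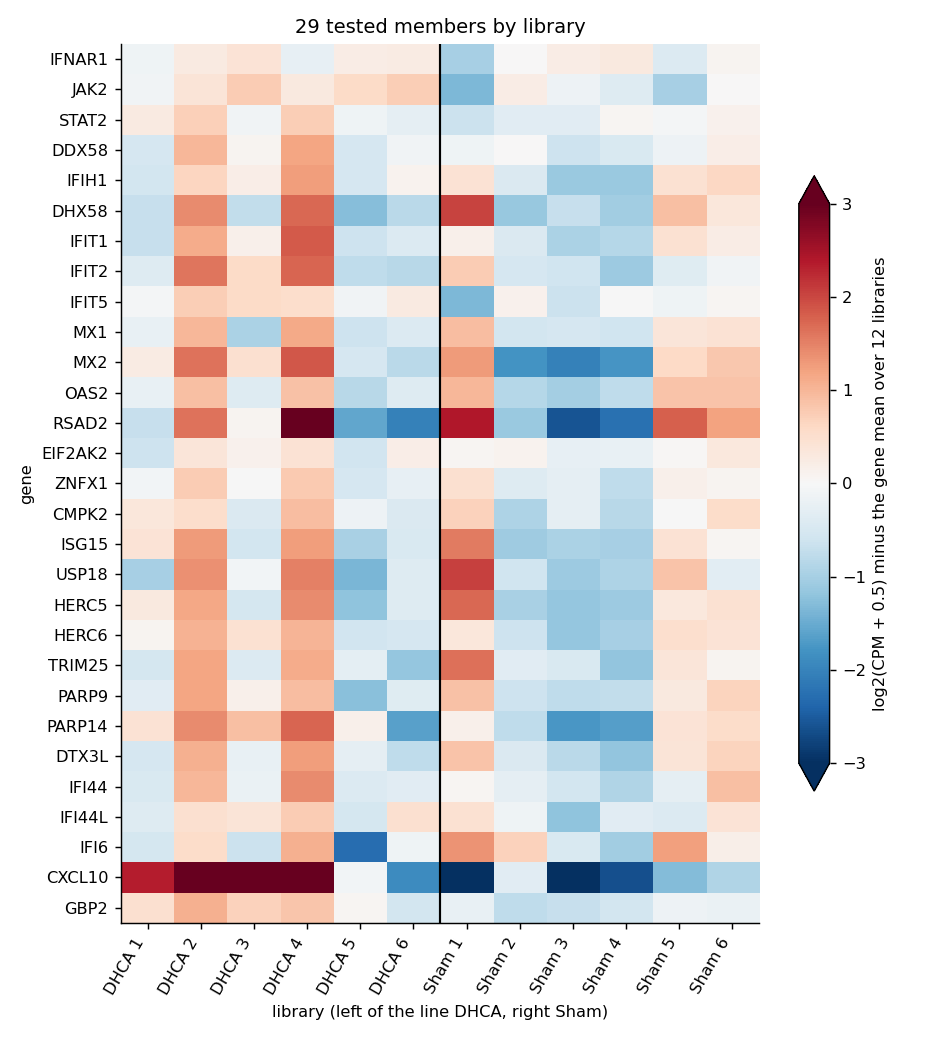
Log2(CPM + 0.5) minus the gene's mean over the 12 libraries, for the 29 tested members in order of role (columns: 6 DHCA left of the line, 6 Sham right), with colours saturating at 3 on either side. Most rows are high in DHCA 2, DHCA 4 and Sham 1 and low in Sham 3 and Sham 4, while CXCL10 is high in DHCA 1 to DHCA 4 only.

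CXCL10 was set beside the other 28 tested members library by library, as a description with no test. Their median deviation was -0.29, 1.03, 0.10, 1.14, -0.52 and -0.40 in DHCA 1 to DHCA 6. In Sham 1 to Sham 6 it was 0.60, -0.48, -0.70, -0.90, 0.35 and 0.34. DHCA 2 and DHCA 4 were high for both. DHCA 1 held 56.3 CPM of CXCL10 with a median of the other members below their mean, and DHCA 3 held 165 CPM with a median near it, though GBP2 lay above all of Sham in both libraries. Sham 1, in which this median was highest after DHCA 4 and DHCA 2, held 0.388 CPM of CXCL10. That is 1 count, and 3 counts in Sham 1 would be 1.16 CPM.

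**Figure D4:**
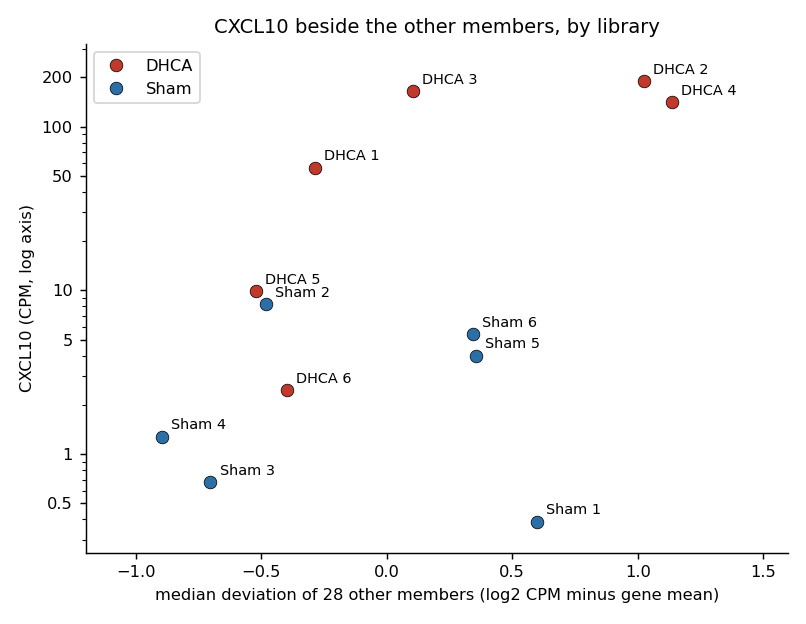
CXCL10 in CPM (log axis) against the median deviation of the other 28 tested members (log2 CPM minus the gene's mean), with 1 labelled point per library. DHCA 2 and DHCA 4 are high on both axes, DHCA 1 (-0.29) and DHCA 3 (0.10) are high for CXCL10 with the other members near or below their mean, and Sham 1 (0.60) is high for the other members with the lowest CXCL10.

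Other genes of the pathway were taken from lists drawn up with earlier results of these data known, and edgeR called 0 of them. Of the interferon genes themselves, IFNG had 0 counts in DHCA, which allows up to 0.294 to 0.618 CPM per library, and 3 counts in Sham. IFNB1 had 3 counts in DHCA and 5 in Sham, and none of the 5 ligand genes found passed the filter. IFNGR1 and IFNGR2, the interferon gamma receptor chains, had fold changes of 0.32 (SE 0.28) and 0.36 (SE 0.27).

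Of 7 tested JAK, STAT and interferon regulatory factor genes outside the members, 4 had positive and 3 negative fold changes, and 0 were lower by the unadjusted p. IRF1, a transcription factor gene of the interferon gamma response, was at 27.2, 50.8 and 131 CPM in DHCA and at 11.8, 27.99 and 64.4 CPM in Sham, a log2 fold change of 1.23 (SE 0.45, adjusted p = 0.469). DHCA 2 and DHCA 4 were the highest of the 12 libraries for IRF1. Of 8 tested nucleic acid sensing genes, 2 had positive and 6 negative fold changes, with 0 at an unadjusted p under 0.05.

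Among 29 tested genes of a further list of interferon-induced genes, 19 fold changes were positive and 10 negative (median 0.14), and 5 were higher and 0 lower by the unadjusted p, beside 3.43% and 4.47% of all tested genes. BATF2, a transcription factor gene, was at 1.44, 5.63 and 14.4 CPM in DHCA and at 0.569, 1.28 and 2.71 CPM in Sham, a log2 fold change of 2.43 (SE 0.53, adjusted p = 0.111). CD274, which encodes the checkpoint ligand PD-L1, was at 1.85, 4.61 and 10.1 CPM in DHCA and at 0.539, 0.868 and 2.33 CPM in Sham, a log2 fold change of 2.20 (SE 0.51, adjusted p = 0.138). In both genes DHCA 4 was the highest and DHCA 6 the lowest DHCA library, and Sham 1 the highest Sham library. SAMD9 and PLSCR1 had fold changes of 1.01 (SE 0.40) and 0.66 (SE 0.28). ACKR3, an atypical chemokine receptor gene from the list around CXCL10, was at 16.1, 28.7 and 34.3 CPM in DHCA and at 7.99, 11.03 and 17.1 CPM in Sham, a log2 fold change of 1.17 (SE 0.25, adjusted p = 0.086).

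Marker levels of other cells stood as follows, and their part in these results was not tested. Microglial markers (12 of 14 found, all 12 tested) summed to 199.7 to 321 CPM in DHCA and to 195 to 381 CPM in Sham, with 0 called, and by the unadjusted p 1 was higher and 3 were lower. The sum was 259 CPM in DHCA 2, 321 CPM in DHCA 4 and 363 CPM in Sham 1. Markers of T and NK cells (12 of 12 found, 4 tested) summed to 13.2 to 22.4 CPM in DHCA and to 12.2 to 45.0 CPM in Sham, where Sham 1 was the highest. CD3D, which defines T cells, had 3 counts in all of DHCA and 5 in all of Sham. Markers of blood monocytes and neutrophils (10 of 12 found, 3 tested) summed to 10.6 to 16.5 CPM in DHCA and to 7.32 to 17.4 CPM in Sham. Endothelial markers summed to 296 to 365 CPM in DHCA and to 287 to 524 CPM in Sham, again highest in Sham 1, and by the unadjusted p 1 of 9 was higher and 4 were lower (median fold change -0.53). Red cell markers summed to 26.7 to 66.6 CPM in DHCA and to 37.2 to 240.1 CPM in Sham, and both tested ones were lower by the unadjusted p (median fold change -1.39). Oligodendrocyte markers summed to 65659 CPM in DHCA 3 and between 4561 and 25654 CPM in the remaining 5 DHCA animals. In Sham they summed to 9512 to 33644 CPM, with 0 of 7 past the unadjusted p in either direction. Astrocyte markers (8 of 8 found, all 8 tested) summed to 4847 to 6992 CPM in DHCA and to 5132 to 6132 CPM in Sham. Their sum was 6992 CPM in DHCA 4, 5364 CPM in DHCA 2 and 5132 CPM in Sham 1, with 0 past the unadjusted p in either direction.

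In the authors' deposited table, 3 of the 31 members passed 0.05 after adjustment as higher in DHCA, beside 0.783% of its genes with an adjusted p, and 0 passed as lower. In the authors' deposited table these were CXCL10 (log2 fold change 4.47, adjusted p = 0.000283), CXCL9 (5.02, adjusted p = 0.0424) and GBP2 (0.94, adjusted p = 0.042). The ID named GBP1 by the reference table has 1.91 (adjusted p = 0.0198) in the authors' deposited table. The DESeq2 Wald test run here called CXCL10 and GBP2, where 0.758% of genes with an adjusted p were called higher, and gave CXCL9 an adjusted p of 0.0705. Both tests come from the same study and were not taken as independent. The sources used here do not state which libraries the authors' test used.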

How the data were processed

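Raw counts for each Ensembl gene were deposited, which featureCounts 1.5.1 had summed over Sscrofa11.1 exons with no strand option, per the file headers. Exon length comes from that table. No source used here names the aligner. Of 18 library columns, 12 match the samples by the number in their descriptions and the other 6 were not used. The submitters' processing notes name featureCounts and DESeq2. The authors' deposited comparison table holds for each gene a normalized signal averaged over libraries, p-values, the log2 fold change and, as scores, the standard error and the statistic of its test, per the file headers. Its fold changes were read as DHCA minus Sham, since their correlation with those computed here was 0.967 across 14004 genes, which only fixes the sign. In all 21223 of its rows the statistic has the opposite sign.

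After a low-count filter (filterByExpr by group) and TMM scaling, counts were tested with the edgeR 4.0.16 quasi-likelihood F test in R 4.3.3, with group as the only term and Benjamini-Hochberg adjustment over 14004 genes. SE is the fold change over the square root of F. CPM per kb divides by exon length. On simulated data of this comparison, with 200 of 14004 genes changed and 13856 tested after the filter, recovery was 42% for 2-fold and 96% for 4-fold changes, with 4 unchanged genes called. The changed genes were drawn from all tested genes. The members spread more widely within groups, and recovery among them was not measured. Alternatives used DESeq2 1.42.0 and limma 3.58.1.

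The members, gene lists and tests were chosen with earlier results of these data known. All members are described, with values by library or lowest, median and highest for those at an unadjusted p under 0.05, the 5 with the highest CPM per kb and 8 fixed names, of which IFNAR2 was not found. Of other lists, up to 4 genes at an unadjusted p under 0.05 are named, beside the interferon ligands and receptors. No sequence was used. One gene of these lists is not reported here. One CPM stands for 1.502 counts in the shallowest and 13.7 in the deepest library. Within a group, chi-square over degrees of freedom was at least 8.50 for every pair of libraries, so none looked deposited more than once.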

Additional observations from a re-analysis of the deposited data

Results flagged for a closer look

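In 3 of the 28 sets of values examined for a library far from the others of its group of 6 (Dixon's criterion), 1 library stood apart, where chance gives about 1 in 20. CXCL9 was at 43.6 CPM in DHCA 2, with 9.95 CPM in the next library. CXCL9 was at 1.16 CPM in Sham 1, which is 3 counts. ISG15 was at 126 CPM in Sham 1, with 57.9 CPM in the next Sham library, and without Sham 1 its log2 fold change was 0.81.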

How the results depend on the processing

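The number of all genes called was 26, and became 181 with the DESeq2 Wald test, 207 with limma-voom and sample quality weights, 8 with the replicate block and 1 without Sham 1, Sham 4 and Sham 5, and 9 (without DHCA 2) to 51 (without Sham 2) without 1 library. The number of members called was 0, and became 2 with DESeq2 (CXCL10 and GBP2), 1 with sample quality weights (GBP2) and 0 to 1 without 1 library (CXCL10 without DHCA 6). With the replicate block 0 members were called. Same-numbered libraries' deviations correlated between -0.39 and 0.34. No pairing of the numbers is stated, and these correlations cannot show whether the animals were paired. The members' median log2 fold change stayed positive, at 0.26 to 0.40 under other scalings, filters and tools, 0.29 with the block, 0.46 without Sham 1, Sham 4 and Sham 5, and 0.10 to 0.52 without 1 library. Signs turned for MX1 with limma-voom (-0.0058) and the block (-0.062), and over the fits without 1 library it ran from -0.20 to 0.30. OAS2 turned with limma-voom (0.021), with sample quality weights (0.055) and without Sham 1, Sham 4 and Sham 5 (0.21), and ran from -0.33 to 0.078 without 1 library. IFNAR1 turned with sample quality weights (-0.061). The causes were not tested. By upper-quartile scaling the highest value lay in DHCA 4 for 16 members, Sham 1 for 7, DHCA 2 for 4, DHCA 3 for 1 and DHCA 6 for 1. Levels under 3 counts, which are 2.00 CPM in Sham 5 and 1.16 CPM in Sham 1, could not be read there.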

Other observations

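CCL2, a monocyte-attracting chemokine gene named here after its values were seen, did not pass the filter. It was at 2.74, 12.6, 5.07, 21.1, 1.01 and 1.03 CPM in DHCA 1 to DHCA 6, against 0, 2.91, 0.135, 0.142, 0.666 and 0 CPM in Sham 1 to Sham 6. DHCA 2 and DHCA 4 held its highest values, and Sham 1 had 0 counts. SOCS1, a feedback inhibitor of JAK kinases also named after its values were seen, had 45 counts in DHCA and 8 in Sham and did not pass the filter.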
